A study of Bos taurus with 12 samples.

Results

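The genes described here are the amino acid transporters of 7 solute carrier families, SLC1, SLC3, SLC6, SLC7, SLC36, SLC38 and SLC43, in cultured precursor adipocytes of cattle (Bos taurus). They were chosen by gene symbol alone: 59 of the 29240 genes in the count table carry a symbol of these families, and no measured value entered the choice. SLC7A6OS, which matches by its letters, is named for lying on the opposite strand of SLC7A6 and is not a transporter, so 58 transporters remained. Of these, 41 had enough reads to be tested among 16300 genes in all. Each of 4 groups holds 3 RNA sequencing libraries, prepared from cells lysed 48 h after they were transfected. The si group received an interfering agent whose target the labels do not name, and its reference was the negative control si_NC. The OE group received pcDNA3.1-HGFAC, the plasmid pcDNA3.1 carrying the coding sequence of HGFAC, and its reference was the plasmid control pcDNA3.1-NC, called OE_NC. HGFAC encodes a secreted protease that activates hepatocyte growth factor. Transfection was transient, so each library mixes cells that took up the agent with cells that did not. The labels give neither the donors of the cells nor whether replicates were separate cultures.

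Amino acids cross membranes mainly through carriers, and most cells run several at once. Those SLC7 members that pair with an SLC3 heavy chain swap one amino acid for another and reach the plasma membrane only when bound to it. SLC38 and SLC1 carriers instead use the sodium gradient to load the cell with glutamine, alanine, serine and glutamate. SLC36 and several SLC38 proteins sit on lysosomes, where they release amino acids from the lumen or report on them to the kinase complex mTORC1. Some members carry other cargo: SLC6A2 takes up noradrenaline, SLC6A4 serotonin, SLC6A8 creatine, SLC6A6 taurine, and SLC43A3 nucleobases. Growing cells raise several of these genes through the transcription factor ATF4 when amino acids run short.

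Each library held 28944733 to 42703663 counts on genes, and the transporters took 0.0558 to 0.0773 percent of them. HGFAC was at 190, 156 and 138 normalised CPM (counts scaled to library size) in OE and at 0.273, 0.379 and 0.526 in OE_NC, and edgeR gave a log2 change of 8.67 ± 0.19 (SE, adjusted p = 4.31e-13). It was at 0.843, 0.525 and 0.605 CPM in si and at 0.818, 0.738 and 0.935 in si_NC, with overlapping groups (log2 -0.35 ± 0.27, edgeR adjusted p = 0.512). The stromal markers COL1A2 and VIM averaged 7200 and 5940 CPM over the 12 libraries, and PDGFRA, which marks adipocyte precursors, averaged 275 CPM. CD34 averaged 0.0287 CPM. Of 6 genes of mature fat cells, ADIPOQ and LEP averaged 0.0604 and 0.109 CPM, while LPL averaged 15.9, FABP4 7.1, PLIN1 1.41 and CIDEC 1.11 CPM. Of 5 muscle genes, the filament gene DES averaged 569 CPM and the actin ACTA1 11.9 CPM, while the regulators MYOD1, MYF5 and MYOG averaged 0.0427, 0.033 and 0.00586 CPM. Of 5 immune cell genes, PTPRC and CD3E averaged 0.0285 and 0.0288 CPM, and CD68, CD163 and CSF1R 4.4, 2.41 and 1.32 CPM. Of 5 epithelial genes, KRT19 averaged 1.9 CPM, and EPCAM, KRT18, KRT8 and CDH1 0.0333 to 0.444 CPM. In OE, DES was higher than in OE_NC (716 CPM in OE against 536 CPM in OE_NC, log2 0.42 ± 0.10, edgeR adjusted p = 0.0399), and ACTA1 was lower (9.69 CPM in OE against 15.5 CPM in OE_NC, log2 -0.68 ± 0.14, edgeR adjusted p = 0.0208). ACTA1, LPL and the neuronal tubulin TUBB3 were higher in OE_NC than in si_NC by edgeR, and ACTA1, TUBB3 and CSF1R had a lower log2 change in OE than in si by edgeR. Of 8 tested stromal markers, edgeR called 1 higher in si (12.5 percent, against 2.54 percent of all genes), and all 8 had positive log2 changes there. It called 1 higher in OE_NC than in si_NC (12.5 percent, against 19.7 percent of all genes) and 0 in OE. For the log2 change in OE minus that in si, 2 were lower (25 percent, against 8.41 percent). THY1 was called by DESeq2 and limma in each comparison with such a call. The part of these markers in the results below was not tested.

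Levels of different genes are compared below as RPKM, the authors' read counts scaled to exon length and to the total of each library. SLC3A2, the CD98 heavy chain that carries SLC7 exchangers to the cell surface, had the highest mean of the 58 transporters, 45.4 RPKM, and made up 28.9 percent of their summed level. SLC38A10, whose function is less settled, followed with 26.3 RPKM. SLC38A2, a sodium-coupled importer of small neutral amino acids, averaged 17 RPKM. SLC6A17, known in rodents as a carrier of neutral amino acids into synaptic vesicles of neurons, averaged 11.8 RPKM and supplied 70.7 percent of the SLC6 sum. Next came the arginine and lysine carrier SLC7A1 with 7.63 RPKM, the glutamine exchanger SLC1A5 with 6.14 RPKM and the light chain SLC7A6 with 6.03 RPKM. In all, 20 of the 58 transporters averaged at least 1 RPKM and 23 averaged under 0.1 RPKM. The 17 transporters that were not tested reached no more than 18 reads in any library and no more than a mean of 0.12 RPKM. Of the 41 tested, 9 had fewer than 10 reads in at least 1 library. Among the untested were the glutamate carriers of neurons and glia SLC1A2 and SLC1A6, the dopamine carrier SLC6A3 and the kidney and gut carriers SLC6A18 and SLC6A19.

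**Figure D1:**
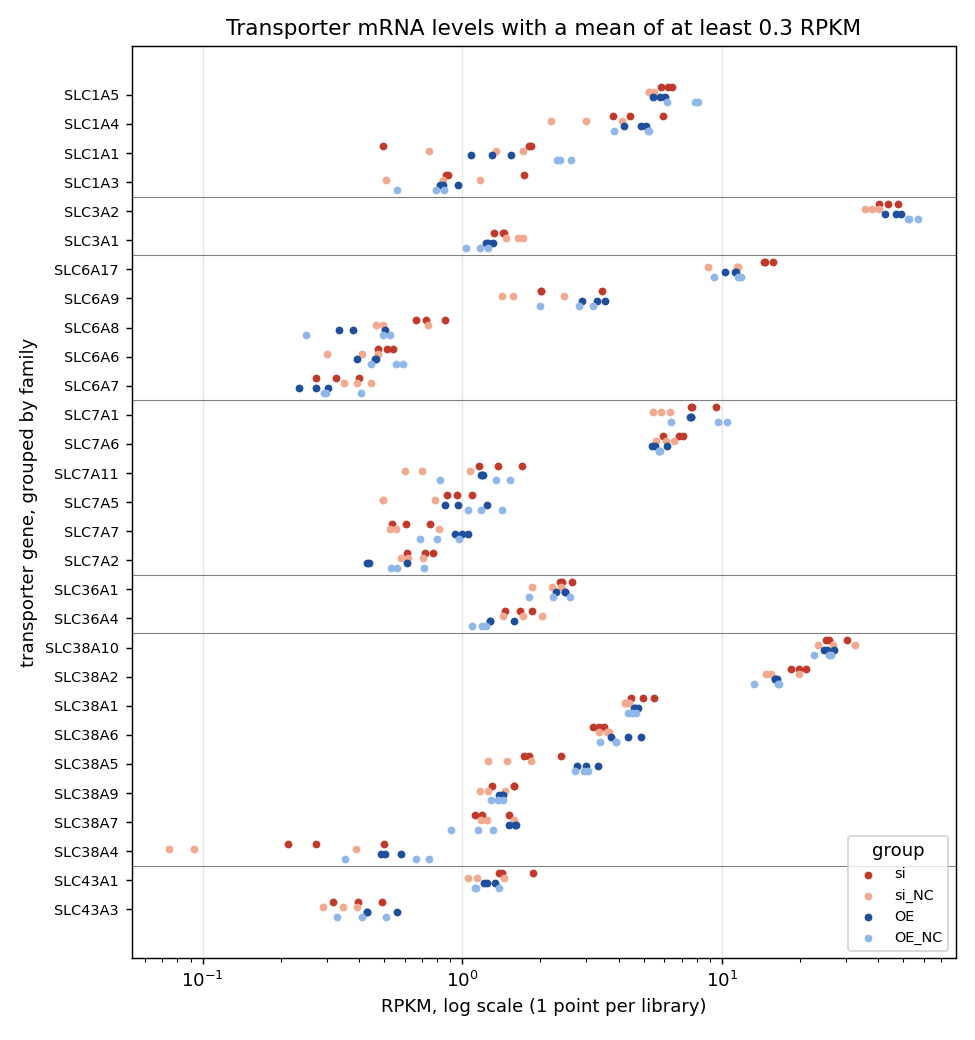
RPKM on a log axis, 1 point per library, for the 29 transporters with a mean of at least 0.3 RPKM, grouped by family and coloured by group. SLC3A2 lies far to the right of its family, at a mean of 45.4 RPKM, and the si_NC points of SLC38A4 are spread widely on the log axis.

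Summed by family, SLC38 and SLC3 held most of the message. The SLC38 sum was 60.4 ± 4.8 RPKM in si, 56.5 ± 8.08 in si_NC, 57.5 ± 1.09 in OE and 54.7 ± 4.98 in OE_NC (mean ± SD, n = 3 each). The SLC3 sum was 45.2 ± 3.69 RPKM in si, 39.5 ± 2.49 in si_NC, 47.2 ± 3.3 in OE and 55 ± 2.54 in OE_NC. The SLC7 sum was 19 ± 0.921 RPKM in si, 14.8 ± 0.692 in si_NC, 17.3 ± 0.64 in OE and 19.1 ± 2.68 in OE_NC. These sums describe levels and were not tested. The SLC6 sum, dominated by SLC6A17, was 20.1 ± 1.68 RPKM in si, 14.5 ± 2.06 in si_NC, 16.5 ± 0.695 in OE and 16 ± 2.01 in OE_NC. The SLC1 sum was 13.4 ± 1.04 RPKM in si, 10.6 ± 0.966 in si_NC, 12.7 ± 0.474 in OE and 15.4 ± 1.97 in OE_NC. The lysosomal and endosomal SLC36 carriers summed to 3.45 to 4.15 RPKM and the SLC43 carriers to 1.72 to 2.18 RPKM across the 4 group means. In bulk RNA, fewer cells of a type and less RNA per cell cannot be told apart.

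The 6 light chains that pair with SLC3A2 (SLC7A5, SLC7A6, SLC7A7, SLC7A8, SLC7A10 and SLC7A11) together stayed below their heavy chain in each group. SLC3A2 exceeded their summed RPKM by a ratio of 4.5 ± 0.416 in si, 4.63 ± 0.197 in si_NC, 5.1 ± 0.686 in OE and 5.89 ± 0.663 in OE_NC (mean ± SD, n = 3 each). SLC7A6, which exchanges cationic for neutral amino acids, made up 67.8 percent of the light-chain sum in si, 74.4 in si_NC, 62.8 in OE and 62.5 in OE_NC. Its last exons share 753 bases with SLC7A6OS on the other strand, and SLC7A6OS averaged 43.2 CPM against 41.4 CPM for SLC7A6. The counting strand is not given in the sources used here, so part of the SLC7A6 reads may belong to its neighbour. The large neutral amino acid exchanger SLC7A5 averaged 0.95 RPKM, the cystine and glutamate exchanger SLC7A11 1.16 RPKM, and SLC7A8, a relative of SLC7A5, 0.0738 RPKM. SLC3A1, the other heavy chain, is known from the cystine carrier of the kidney and averaged 1.36 RPKM. It shares 778 of its 2408 exon bases with PREPL on the opposite strand, and PREPL averaged 15.2 CPM against 3.28 CPM for SLC3A1, so the values of SLC3A1 are uncertain.

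Some libraries stood apart from their own group in these genes. Replicate 3 of si was the highest of its group for 28 of the 41 tested transporters, 68.3 percent, against 39.9 percent of all tested genes. Replicate 2 of si_NC was the highest for 26, 63.4 percent against 38.3 percent. Replicate 1 of OE_NC was the lowest for 28, 68.3 percent against 39.1 percent. The OE libraries showed no such order, each being highest for 13 to 15 transporters. The same libraries stood apart in 23 genes of the amino acid stress response, ATF4 and its targets. These summed to 1532, 1456 and 1788 CPM in si, 1247, 1711 and 1301 in si_NC, 2091, 2166 and 2143 in OE, and 1632, 1800 and 1871 in OE_NC. NUPR1 made up much of these gaps, at 227, 221 and 426 CPM in si, 142, 473 and 151 in si_NC, and 172, 282 and 277 in OE_NC. DDIT3 was lowest in si replicate 3. Of 20 stress genes with a mean of at least 5 CPM, 16 lay above their group mean in si replicate 3. In si_NC replicate 2 it was 16, and in OE_NC replicate 1 it was 4. Sums of 9 stromal markers were 18978, 18662 and 23632 CPM in si, 13817, 18847 and 14898 in si_NC, 18638, 19926 and 19825 in OE, and 14468, 17630 and 19247 in OE_NC. The high libraries of si and si_NC and the low library of OE_NC were thus the same for the stress and the stromal sums, and values without them are given below. CD34 was at or near 0 throughout.

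**Figure D2:**
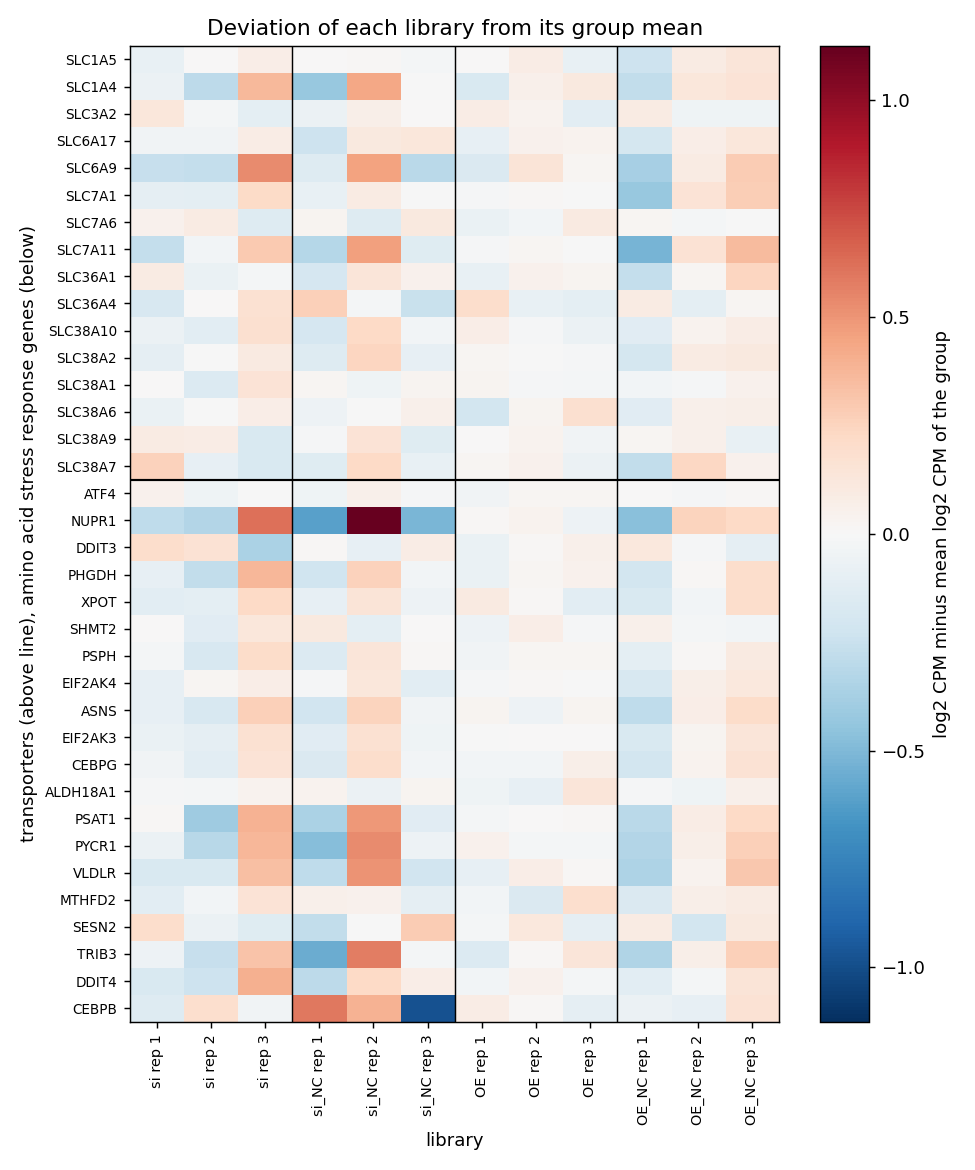
Each cell is a library's log2 CPM minus the mean log2 CPM of its own group, for 16 transporters above the line and 20 stress response genes below it, all with a mean of at least 5 CPM. Replicate 3 of si and replicate 2 of si_NC are red in most rows, replicate 1 of OE_NC is blue in most, and the OE libraries are pale.

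The comparison of si with si_NC asked what the interfering agent did to the transporters. SLC6A17 rose in si, and it was the only transporter to pass at an edgeR adjusted p under 0.05: 1 of 41 (2.44 percent), where 2.54 percent of all 16300 genes passed, 0.92 percent higher and 1.62 percent lower. The cystine exchanger SLC7A11, the large neutral amino acid exchanger SLC7A5 and the arginine carrier SLC7A1 were each higher in every si library than in any si_NC library but did not pass. Of the 41 transporters, 31 (75.6 percent) had a positive log2 change, against 54 percent of all genes. The median log2 change was 0.15 for the transporters and 0.025 for all genes. With library totals in place of TMM scaling these medians were 0.23 and 0.104. The groups did not overlap for 5 transporters that were higher in si (10.2 percent of all genes) and for 2 that were lower (10.6 percent of all genes). Without adjustment, 6 transporters were higher and 0 lower at p under 0.05, where 18.9 percent of all genes passed in either direction.

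SLC6A17 lies on chromosome 3 by its RefSeq entry (33226161 to 33281700, minus strand, in the coordinates of the count table, for which the sources used here name no genome build). It was at 91.2, 91.5 and 99.5 CPM in si and at 59.6, 75.7 and 76.5 CPM in si_NC. Each si library was above each si_NC library, and si_NC replicate 1 was the lowest. The log2 change was 0.41 ± 0.10 (SE, n = 3 each, edgeR adjusted p = 0.047). The call did not withstand the loss of most libraries. The edgeR adjusted p was 0.118, 0.111 and 0.0791 without si replicates 1, 2 and 3, 0.204 and 0.0718 without si_NC replicates 1 and 3, and 0.0263 without si_NC replicate 2. The log2 change stayed between 0.31 and 0.47 in these fits. In the overexpression assay the gene was at 66.8, 73.6 and 73.3 CPM in OE against 59.0, 71.3 and 73.8 CPM in OE_NC, with overlap (log2 0.07 ± 0.10, edgeR adjusted p = 0.755).

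SLC7A11, which imports cystine for glutathione synthesis, was at 11.1, 13.1 and 16.4 CPM in si and at 6.21, 10.7 and 7.08 CPM in si_NC. The highest si_NC value came from replicate 2 and lay just under the lowest si value. The log2 change was 0.76 ± 0.22 (edgeR adjusted p = 0.0767). Without si_NC replicate 2 it was 1.02 with an edgeR adjusted p of 0.0156, and with any other library left out it was 0.60 to 0.88 with edgeR adjusted p-values of 0.113 to 0.293. SLC7A5 was at 3.29, 3.56 and 4.13 CPM in si and at 2.00, 3.06 and 1.97 CPM in si_NC. Here too the groups were separate and si_NC replicate 2 was the nearest to si. Its log2 change was 0.65 ± 0.20 (edgeR adjusted p = 0.101). It was 0.87 without si_NC replicate 2 (edgeR adjusted p = 0.0236) and 0.53 to 0.71 with any other library left out (edgeR adjusted p = 0.17 to 0.325). SLC7A1 was at 53.7, 53.4 and 67.0 CPM in si and at 40.9, 46.1 and 43.3 CPM in si_NC, with a log2 change of 0.42 ± 0.14 (edgeR adjusted p = 0.125). Its si replicate 3 stood above the other libraries, and without that library the log2 change was 0.30. Of the 8 tested SLC7 genes, 7 had a positive log2 change, against 54 percent of all genes, and the median was 0.42. While 0 of them passed edgeR, 3 had an unadjusted p under 0.05, where 18.9 percent of all genes did. DESeq2 called 2, SLC7A11 and SLC7A5, and it called more of all genes in si than edgeR did.

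The heavy chain SLC3A2 was at 97.6, 88.3 and 82.9 CPM in si and at 77.8, 85.5 and 81.8 CPM in si_NC, with overlapping groups (log2 0.13 ± 0.08, edgeR adjusted p = 0.407). SLC3A1 was at 3.13, 3.38 and 3.44 CPM in si and at 4.15, 4.22 and 3.71 CPM in si_NC, without overlap (log2 -0.28 ± 0.14, edgeR adjusted p = 0.277). Among the SLC1 carriers all 4 tested members had positive log2 changes, from 0.04 to 0.53, and 0 passed edgeR or DESeq2, while 1, SLC1A4, had an unadjusted p under 0.05. SLC1A4, an exchanger of alanine, serine and cysteine, was at 19.3, 16.4 and 26 CPM in si and at 10.3, 18.7 and 13.8 CPM in si_NC. These groups overlapped through si replicate 2 and si_NC replicate 2 (log2 0.53 ± 0.20, edgeR adjusted p = 0.162). SLC1A5 was at 16.5, 17.4 and 18.3 CPM in si and at 16.0, 16.0 and 15.7 CPM in si_NC, a narrow separation with a log2 change of 0.13 ± 0.10 (edgeR adjusted p = 0.519). The 10 tested SLC38 genes ranged from -0.52 to 0.77 on the log2 scale with a median of 0.13. SLC38A2, the member known to be induced by amino acid starvation, was at 88.5, 94.5 and 101.6 CPM in si and at 75.8, 98.8 and 78.7 CPM in si_NC, with overlap through si_NC replicate 2 (log2 0.17 ± 0.10, edgeR adjusted p = 0.412). The most abundant member, SLC38A10, was at 119.7, 115.7 and 142.1 CPM in si and at 117.0, 155.9 and 131.1 CPM in si_NC, again overlapping.

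**Figure D3:**
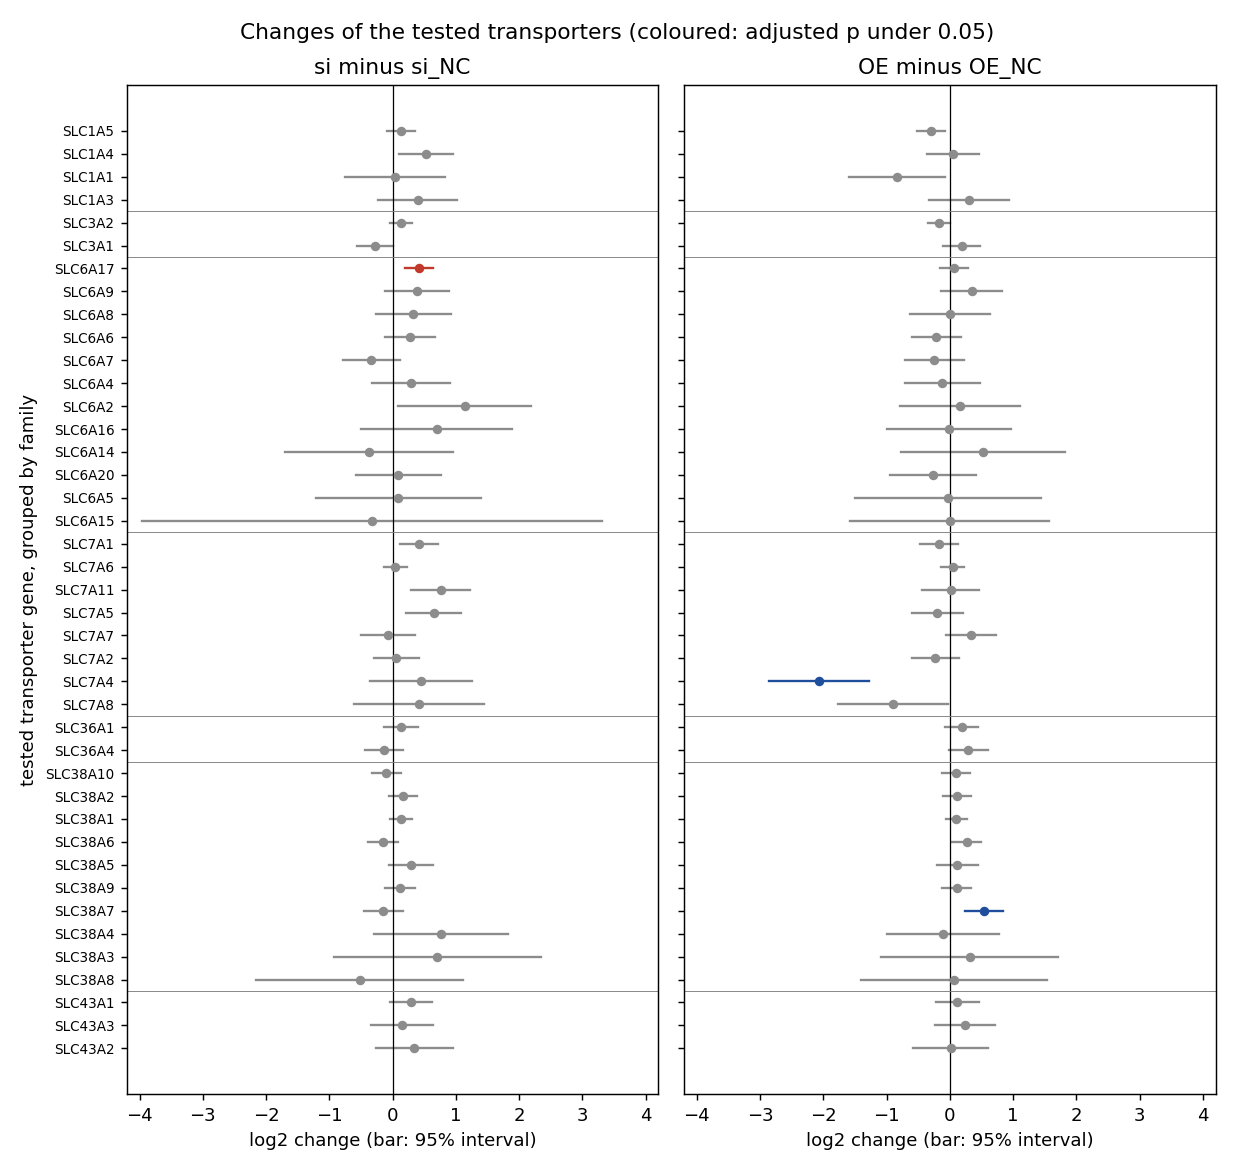
Log2 change with its 95% interval for the 41 tested transporters, by family, in si against si_NC (left) and OE against OE_NC (right), with genes at an adjusted p under 0.05 coloured. SLC6A17 is coloured on the left, and SLC7A4 and SLC38A7 on the right, where most other points lie near 0.

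The comparison of OE with OE_NC asked what the HGFAC plasmid did beyond its control plasmid. SLC7A4 fell and SLC38A7 rose in OE, so 2 of 41 transporters passed (4.88 percent), where 4.47 percent of all genes passed, 2.22 percent higher and 2.25 percent lower. The transporters split into 25 positive (61 percent, against 49.3 percent of all genes) and 16 negative log2 changes with a median of 0.05, against -0.005 over all genes, and with library totals the median turned to -0.006 with 20 positive. The groups did not overlap for 7 transporters that were higher in OE (17.4 percent of all genes) and 4 that were lower (16 percent of all genes). At an unadjusted p under 0.05, 2 were higher and 5 lower, where 22.9 percent of all genes passed in either direction. Both counts of lower genes, by overlap and by unadjusted p, include SLC7A8, which entered the test through OE_NC, where it was high.

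SLC7A4 resembles the cationic amino acid carriers of its family in sequence, though its own transport activity is not established. It lies on chromosome 17 by its RefSeq entry (72373077 to 72376852, minus strand, coordinates of the count table) and shares no exon bases with another gene there. It was at 0.277, 0.285 and 0.185 CPM in OE and at 1.2, 1.31 and 0.664 CPM in OE_NC. All OE libraries lay below all OE_NC libraries, and OE_NC replicate 3 was the lowest of its group. These levels rest on 6 to 10 reads per OE library and 24 to 52 reads per OE_NC library. The log2 change was -2.07 ± 0.37 (95% interval -2.87 to -1.27, edgeR adjusted p = 0.0143). It ranged from -2.33 to -1.89 when a library was left out. The edgeR adjusted p was then 0.0723 and 0.0627 without OE replicates 2 and 3, 0.0642 and 0.0703 without OE_NC replicates 1 and 2, 0.0339 without OE replicate 1 and 0.0113 without OE_NC replicate 3. In the interference assay SLC7A4 was at 0.653, 0.617 and 0.385 CPM in si against 0.458, 0.352 and 0.401 CPM in si_NC, with overlap (log2 0.45 ± 0.38, edgeR adjusted p = 0.556).

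SLC38A7 exports glutamine and asparagine from lysosomes. It lies on chromosome 18 by its RefSeq entry (26423562 to 26442537, minus strand, coordinates of the count table) and also shares no exon bases with another gene. It was at 15.1, 15.4 and 14.2 CPM in OE and at 8.32, 11.9 and 10.4 CPM in OE_NC. The groups were separate, with OE_NC replicate 1 the lowest. The log2 change was 0.54 ± 0.14 (edgeR adjusted p = 0.0464). Leaving out any 1 library ended the call, with edgeR adjusted p-values of 0.126, 0.165 and 0.11 without OE replicates 1, 2 and 3 and of 0.2, 0.0791 and 0.0777 without OE_NC replicates 1, 2 and 3. The log2 change in these fits was between 0.40 and 0.66. In si it was at 13.9, 10.9 and 10.3 CPM against 11.7, 15 and 12.1 CPM in si_NC, with overlap (log2 -0.15 ± 0.14, edgeR adjusted p = 0.633).

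**Figure D4:**
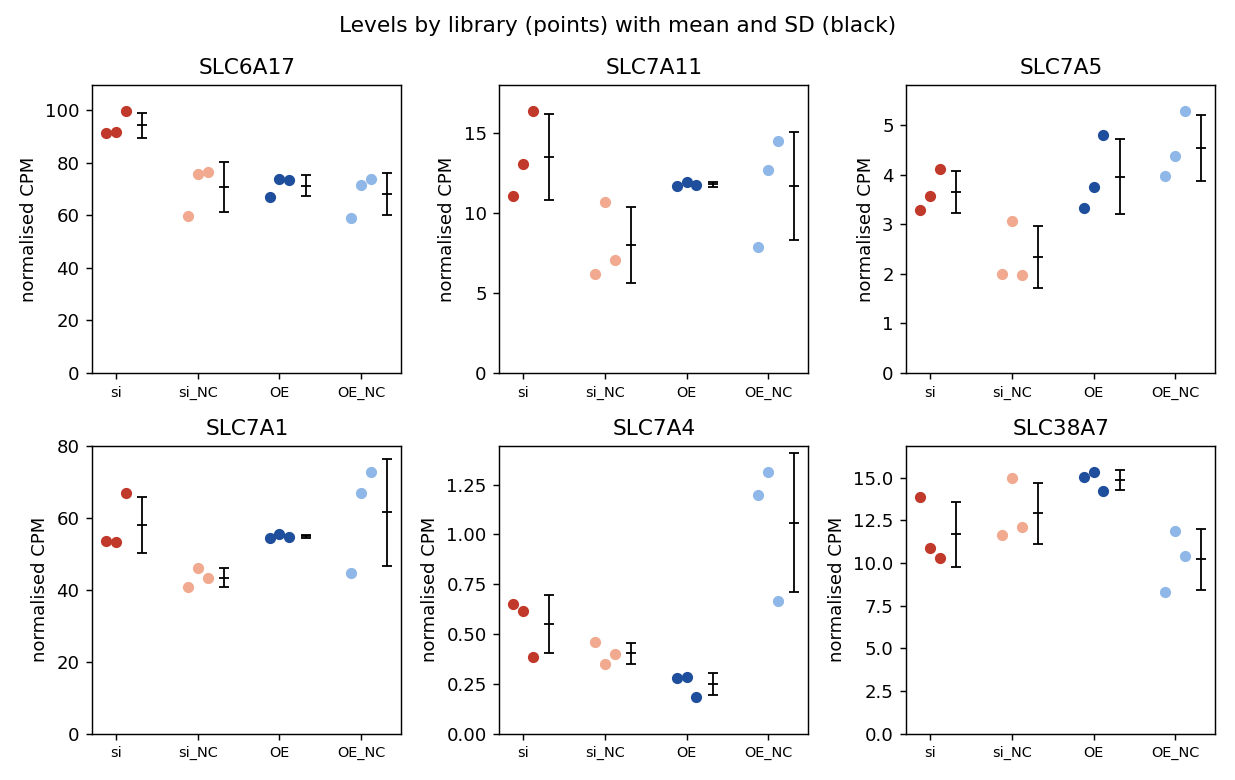
Normalised CPM of 6 transporters in each library (points) with the group mean and SD (black, n = 3). SLC6A17, SLC7A11, SLC7A5 and SLC7A1 are higher in all si than in all si_NC libraries, SLC7A4 is lower in all OE than in all OE_NC libraries, and SLC38A7 is higher in all OE than in all OE_NC libraries.

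The 7 carriers with a mean above 6 RPKM did not pass edgeR in OE, though SLC3A2 and SLC1A5 had an unadjusted p under 0.05. SLC3A2 was at 102.6, 99.1 and 88.8 CPM in OE and at 116.5, 105.6 and 105.9 CPM in OE_NC. The groups did not overlap, but the difference did not pass (log2 -0.17 ± 0.08, edgeR adjusted p = 0.215). SLC1A5 was at 16.9, 17.7 and 15.8 CPM in OE and at 17.5, 21.9 and 22.6 CPM in OE_NC, overlapping through OE_NC replicate 1 (log2 -0.30 ± 0.10, edgeR adjusted p = 0.0954). The glutamate carrier SLC1A1 was at 2.08, 2.48 and 1.72 CPM in OE and at 3.68, 3.99 and 3.57 CPM in OE_NC, without overlap (log2 -0.84 ± 0.36, edgeR adjusted p = 0.174). SLC7A11 was at 11.7, 12.0 and 11.8 CPM in OE and at 7.91, 12.7 and 14.5 CPM in OE_NC. The OE values lay inside the wider OE_NC range, and the 95% interval of the log2 change was -0.44 to 0.47. SLC7A1 was at 54.5, 55.5 and 54.8 CPM in OE and at 44.8, 67.1 and 72.9 CPM in OE_NC (log2 -0.17 ± 0.14, edgeR adjusted p = 0.514). SLC7A5 was at 3.33, 3.76 and 4.80 CPM in OE and at 3.98, 4.37 and 5.29 CPM in OE_NC (log2 -0.20 ± 0.19, edgeR adjusted p = 0.565). Both pairs of groups overlapped, and the OE libraries of SLC7A1 lay closer together than those of OE_NC. Of the 10 tested SLC38 genes, 9 had a positive log2 change, with a median of 0.11. SLC38A9, the lysosomal arginine sensor of mTORC1, was at 9.62, 9.85 and 9.36 CPM in OE and at 9.06, 9.27 and 8.44 CPM in OE_NC, a narrow separation that did not pass (log2 0.11 ± 0.11, edgeR adjusted p = 0.592). SLC36A4, a carrier of proline and tryptophan, was at 8.67, 7.12 and 6.99 CPM in OE and at 6.60, 5.74 and 6.28 CPM in OE_NC. These groups did not overlap either, and the difference did not pass (log2 0.29 ± 0.15, edgeR adjusted p = 0.248).

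Whether the transporters changed differently in the overexpression and the interference assay was tested as the log2 change in OE minus the log2 change in si. SLC7A4 (-2.52 ± 0.53, edgeR adjusted p = 0.0115) and SLC38A7 (0.69 ± 0.20, edgeR adjusted p = 0.0499) passed, 2 of 41 (4.88 percent), against 8.41 percent of all genes, 4.29 percent higher and 4.12 percent lower. SLC7A4 passed with each of the 12 libraries left out in turn. SLC38A7 passed in 2 of those 12 fits, without si replicate 1 and without OE_NC replicate 2, and its log2 difference ranged from 0.55 to 0.82 over them. SLC7A5 (-0.85 ± 0.28, edgeR adjusted p = 0.074), SLC1A5 (-0.43 ± 0.14, edgeR adjusted p = 0.0777) and SLC7A1 (-0.58 ± 0.20, edgeR adjusted p = 0.0837) did not pass. For SLC6A17 the difference was -0.35 ± 0.15 (edgeR adjusted p = 0.153), so its rise in si was not shown to differ from its change in OE. Of the 41 log2 differences, 13 were positive, 31.7 percent, against 47.4 percent of all genes.

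More transporters differed between the control groups, OE_NC and si_NC, than in either treatment. These groups received different control agents in assays that the study's design names separately, and the assay and the control agent cannot be told apart. In OE_NC 8 transporters were higher and 2 lower at an edgeR adjusted p under 0.05, 24.4 percent of 41, against 19.7 percent of all genes, 9.49 percent higher and 10.2 percent lower. At an unadjusted p under 0.05, 13 were higher and 4 lower, where 34.1 percent of all genes passed. The groups did not overlap for 8 that were higher (18.4 percent of all genes) and 3 that were lower (17.4 percent of all genes). Each of these counts of higher genes includes SLC7A8, which entered the test through OE_NC, where it was high. The unadjusted count also includes SLC6A15, which reached 10 reads in 3 libraries alone, all of OE or OE_NC. SLC6A16 is in the unadjusted and the non-overlap count. It reached 10 reads in all 3 libraries of OE and of OE_NC, and in no si_NC library. The OE_NC libraries also serve as the reference of OE, and the si_NC libraries as that of si, so these values are not independent of the comparisons above.

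The heavy chain SLC3A2 and its partner SLC7A5 were both higher in OE_NC. SLC3A2 was at 116.5, 105.6 and 105.9 CPM in OE_NC and at 77.8, 85.5 and 81.8 CPM in si_NC, far apart (log2 0.42 ± 0.08, edgeR adjusted p = 0.0032). SLC7A5 was at 3.98, 4.37 and 5.29 CPM in OE_NC and at 2.00, 3.06 and 1.97 CPM in si_NC, without overlap (log2 0.96 ± 0.20, edgeR adjusted p = 0.00475). SLC38A5, which carries glutamine, histidine and asparagine, was at 5.35, 5.69 and 5.92 CPM in OE_NC and at 3.14, 3.76 and 2.60 CPM in si_NC (log2 0.84 ± 0.16, edgeR adjusted p = 0.0032). Its 12 libraries fell apart by assay: the OE values of 6.04, 5.67 and 6.68 CPM and the OE_NC values all lay above the si values of 3.40, 3.52 and 4.73 CPM and above the si_NC values. Lower in OE_NC were SLC36A4, at 6.60, 5.74 and 6.28 CPM in OE_NC against 11.6, 9.49 and 8.11 CPM in si_NC (log2 -0.65 ± 0.14, edgeR adjusted p = 0.00669), and SLC3A1, at 2.45, 2.73 and 2.93 CPM in OE_NC against 4.15, 4.22 and 3.71 CPM in si_NC (log2 -0.57 ± 0.14, edgeR adjusted p = 0.01). These 5 calls remained with each of the 6 libraries left out in turn.

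**Figure D5:**
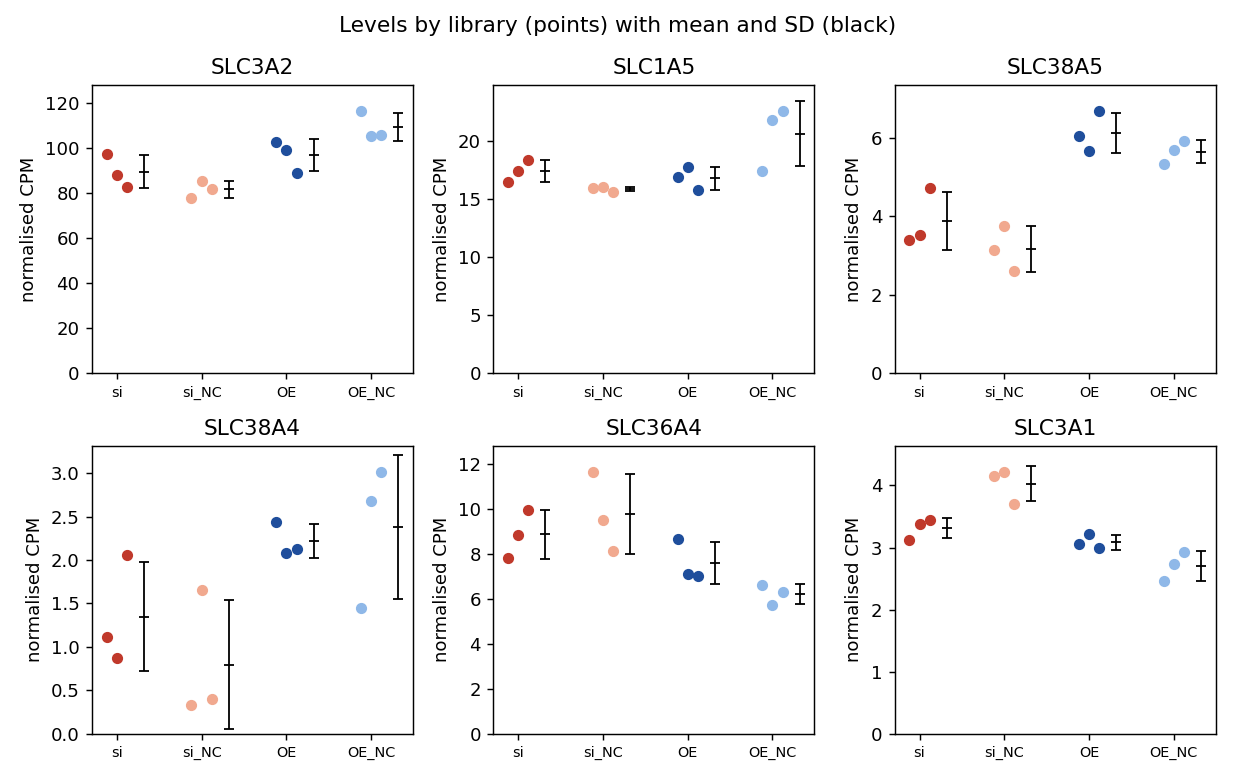
Normalised CPM of 6 transporters in each library (points) with the group mean and SD (black, n = 3). SLC3A2, SLC1A5 and SLC38A5 are higher in all OE_NC than in all si_NC libraries, SLC36A4 and SLC3A1 are lower, and SLC38A4 overlaps through si_NC replicate 2.

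The other 5 calls between the controls rested more on single libraries. SLC1A5 was at 17.5, 21.9 and 22.6 CPM in OE_NC and at 16.0, 16.0 and 15.7 CPM in si_NC (log2 0.38 ± 0.10, edgeR adjusted p = 0.0174). It did not pass without si_NC replicate 3 or OE_NC replicates 2 or 3, with edgeR adjusted p-values of 0.0517, 0.0768 and 0.0668. SLC7A1 was at 44.8, 67.1 and 72.9 CPM in OE_NC and at 40.9, 46.1 and 43.3 CPM in si_NC, overlapping through OE_NC replicate 1 (log2 0.50 ± 0.14, edgeR adjusted p = 0.0217). It passed without OE_NC replicate 1 or si_NC replicate 2, and the edgeR adjusted p was 0.0793 and 0.0572 without si_NC replicates 1 and 3 and 0.093 and 0.0915 without OE_NC replicates 2 and 3. SLC7A4 was at 1.2, 1.31 and 0.664 CPM in OE_NC and at 0.458, 0.352 and 0.401 CPM in si_NC, without overlap (log2 1.39 ± 0.36, edgeR adjusted p = 0.0143), and did not pass without OE_NC replicate 2 (log2 1.2, edgeR adjusted p = 0.0733). Its OE values of 0.277, 0.285 and 0.185 CPM lay below those of si_NC as well.

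SLC38A4, an importer of neutral amino acids known from liver and placenta, was at 1.45, 2.68 and 3.02 CPM in OE_NC and at 0.327, 1.65 and 0.401 CPM in si_NC (log2 1.60 ± 0.48, edgeR adjusted p = 0.0285). Replicate 2 of si_NC lay inside the OE_NC range. Without that library the log2 change was 2.70 (edgeR adjusted p = 0.0015). It did not pass without si_NC replicates 1 or 3 (edgeR adjusted p = 0.112 and 0.105) or OE_NC replicates 2 or 3 (edgeR adjusted p = 0.0887 and 0.0857). SLC7A8 had at least 10 reads in all 3 libraries of 1 group alone, OE_NC, and so entered the test through the group in which it was high. It was at 0.436, 0.632 and 0.443 CPM in OE_NC and at 0.262, 0.141 and 0.134 CPM in si_NC, which is 16 to 25 reads per OE_NC library and 4 to 8 reads per si_NC library (log2 1.47 ± 0.45, edgeR adjusted p = 0.0309). It did not pass without si_NC replicates 2 or 3 (edgeR adjusted p = 0.0928 and 0.104) or OE_NC replicates 2 or 3 (edgeR adjusted p = 0.122 and 0.0503). Nor did it pass with no filter on low counts (edgeR adjusted p = 0.0919) or with the 6 control libraries fitted alone (edgeR adjusted p = 0.0513). SLC7A11 differed by 0.55 ± 0.22 on the log2 scale and did not pass (edgeR adjusted p = 0.089). In the SLC7 family SLC7A1, SLC7A4 and SLC7A5 were called higher, as was SLC7A8, which entered the test through OE_NC. With SLC7A8 counted, 4 of 8 tested members were higher and 0 lower, where 9.49 percent of all genes were called higher and 10.2 percent lower. In the SLC6 family 0 of 12 were called by the main edgeR test, DESeq2 or limma, while 2, SLC6A15 and SLC6A16, had an unadjusted p under 0.05. SLC6A15 had 0 to 2 reads per si_NC library and 2 to 12 per OE_NC library. SLC6A16 had 4 to 8 and 16 to 27. With no filter on low counts edgeR called SLC6A15 and SLC6A9, and it called SLC6A15 without si_NC replicate 2 or OE_NC replicate 2.

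The remaining leading members of their families did not pass edgeR in any of the 4 comparisons, though DESeq2 called SLC1A4 higher in OE_NC than in si_NC, and edgeR with no filter on low counts called SLC1A4 and SLC6A9 there. SLC6A9, a glycine carrier, was at 7.18, 7.10 and 12.4 CPM in si and at 6.02, 9.07 and 5.38 CPM in si_NC, and at 10.6, 13.2 and 12.1 CPM in OE and at 7.12, 9.83 and 11.2 CPM in OE_NC. Both pairs overlapped, and si replicate 3 stood above the other si libraries. SLC36A1, which moves amino acids and protons out of lysosomes, was at 15.7, 14.0 and 14.5 CPM in si and at 11.8, 14.7 and 13.9 CPM in si_NC, and at 14.0, 15.4 and 15.1 CPM in OE and at 10.7, 13.1 and 15.2 CPM in OE_NC. SLC7A6 was at 46.0, 47.5 and 40.1 CPM in si and at 44.0, 39.1 and 46.6 CPM in si_NC, and at 37.4, 38.7 and 42.4 CPM in OE and at 39.0, 37.8 and 38.2 CPM in OE_NC. Its groups overlapped within each assay, and its OE_NC libraries lay below its si_NC libraries (log2 -0.17 ± 0.09, edgeR adjusted p = 0.179). SLC43A1, a carrier of branched-chain amino acids, was at 4.95, 4.80 and 6.55 CPM in si and at 3.93, 5.20 and 4.17 CPM in si_NC, with overlap (log2 0.29 ± 0.16, edgeR adjusted p = 0.335). In OE it was at 4.46, 4.39 and 4.74 CPM against 3.93, 3.82 and 4.76 CPM in OE_NC, also overlapping (log2 0.12 ± 0.16, edgeR adjusted p = 0.691). SLC43A3 was at 1.63, 2.01 and 1.32 CPM in si and at 1.54, 1.69 and 1.27 CPM in si_NC, and at 1.83, 1.85 and 2.37 CPM in OE and at 1.36, 1.67 and 2.08 CPM in OE_NC. Its log2 changes were 0.15 ± 0.23 in si and 0.24 ± 0.22 in OE (edgeR adjusted p = 0.775 and 0.546). SLC1A4 was at 18.8, 22.0 and 22.8 CPM in OE and at 16.7, 22.2 and 22.6 CPM in OE_NC. SLC38A2 was at 80.6, 79.5 and 78.8 CPM in OE and at 63.6, 77.9 and 79.0 CPM in OE_NC, and SLC38A10 at 129.4, 122.0 and 117.3 CPM in OE and at 104.7, 117.8 and 121.3 CPM in OE_NC. All 3 genes overlapped between OE and OE_NC, with OE_NC replicate 1 the lowest library. SLC38A9 was at 10.4, 10.3 and 8.64 CPM in si and at 8.90, 9.98 and 8.15 CPM in si_NC, overlapping as well.

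Genes that sense, regulate or use the carried amino acids were counted beside the transporters. The lists overlap: ASNS, GPT2, SESN2 and CHAC1 each stand in the stress response list and in another list below. Of 23 genes of the amino acid stress response, MTHFD2, a mitochondrial folate enzyme, rose in si (21 CPM in si against 13.9 CPM in si_NC, log2 0.59 ± 0.11, edgeR adjusted p = 0.0157). This 1 call was 4.35 percent of the list, against 2.54 percent of all genes. Of the 23, 20 (87 percent) had positive log2 changes, against 54 percent of all genes, with a median of 0.16 against 0.025 over all genes. DESeq2 called 4 of the 23 higher in si (ASNS, MTHFD2, PSAT1 and TRIB3) and 1 lower (CEBPB). It also called more of all genes in si than edgeR did, by the counts in the closing section. In OE 0 of the 23 passed edgeR, DESeq2 or limma, and 5 had an unadjusted p under 0.05, where 22.9 percent of all genes did. PSPH, a serine synthesis enzyme, had the smallest p there (log2 0.26 ± 0.10, edgeR adjusted p = 0.127). In OE_NC against si_NC 12 were higher and 2 lower, 60.9 percent of the 23, where 19.7 percent of all genes were called. ATF4 itself was at 429 CPM in OE_NC against 306 CPM in si_NC (log2 0.49 ± 0.06, edgeR adjusted p = 0.000166), and the asparagine synthetase ASNS at 46.3 CPM in OE_NC against 28.6 CPM in si_NC (log2 0.69 ± 0.14, edgeR adjusted p = 0.00449). The serine synthesis enzymes PSAT1 (log2 1.07), PHGDH (log2 0.62) and PSPH (log2 0.32) were among the higher genes, as were TRIB3 (log2 1.27), CHAC1 (log2 1.31), PYCR1 (log2 0.95), SESN2 (log2 0.64), MTHFD2 (log2 0.57), DDIT3 (log2 0.45) and SHMT2 (log2 0.27). The kinases EIF2AK3 (log2 -0.52) and EIF2AK4 (log2 -0.29), which act upstream of ATF4, were the lower genes.

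Of 32 genes of amino acid sensing at the lysosome, 0 passed edgeR in si. At an unadjusted p under 0.05, 2 were higher and 3 lower, where 18.9 percent of all genes passed in either direction. DESeq2 called 3 lower, RRAGD, MIOS and WDR59, and 1 higher. RRAGD, a GTPase that recruits mTORC1 to lysosomes, had the smallest p in si, at 21.5 CPM in si against 28.1 CPM in si_NC (log2 -0.38 ± 0.10, edgeR adjusted p = 0.0514). In OE 16 of the 32 log2 changes were positive and 16 negative, with a median of 0.004. At an unadjusted p under 0.05, 4 were higher and 3 lower, where 22.9 percent of all genes passed. By edgeR 3 of 32 rose and 0 fell, 9.38 percent, where 4.47 percent of all genes were called, and limma on RPKM called 0 of them. These were RRAGD at 24.1 CPM in OE against 17.7 CPM in OE_NC (log2 0.45 ± 0.10, edgeR adjusted p = 0.0276), FNIP1, a partner of folliculin, at 69.9 CPM in OE against 56.5 CPM in OE_NC (log2 0.30 ± 0.07, edgeR adjusted p = 0.0345), and CASTOR2, from a family of arginine sensors, at 12.8 CPM in OE against 8.62 CPM in OE_NC (log2 0.57 ± 0.15, edgeR adjusted p = 0.044). The log2 change of RRAGD differed between OE and si by 0.83 ± 0.14 (edgeR adjusted p = 0.00374). Between the controls 4 sensing genes were higher in OE_NC (SESN2, ITFG2, MLST8 and LAMTOR4) and 6 lower (RRAGA, RRAGC, RRAGD, MTOR, DEPDC5 and FLCN), 31.2 percent of the 32, where 19.7 percent of all genes were called. RRAGD was at 17.7 CPM in OE_NC against 28.1 CPM in si_NC (log2 -0.67 ± 0.10, edgeR adjusted p = 0.00062).

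A further list held 10 genes of glutathione and related redox defence, of which GCLC, GCLM and GSS make glutathione. Of the 10, 0 passed edgeR, DESeq2 or limma in si, where 0 had an unadjusted p under 0.05. In OE 0 passed these tests either, and 2 had an unadjusted p under 0.05, where 22.9 percent of all genes did. GCLM, a subunit of the enzyme that starts glutathione synthesis, had the smallest p in OE (1.88 CPM in OE against 2.68 CPM in OE_NC, log2 -0.51 ± 0.21, edgeR adjusted p = 0.17). In OE_NC against si_NC 5 were lower and 2 (CHAC1 and GSS) higher, 70 percent of the 10, against 19.7 percent of all genes. Among the genes that make glutathione, GSS was higher, GCLM was lower and GCLC was not called. The lower genes were the thioredoxin reductase TXNRD1, at 399 CPM in OE_NC against 781 CPM in si_NC (log2 -0.97 ± 0.07, edgeR adjusted p = 6.55e-06), SRXN1, at 77.2 CPM in OE_NC against 180 CPM in si_NC (log2 -1.22 ± 0.08, edgeR adjusted p = 4.76e-06), and HMOX1, GSR and GCLM. Of 10 enzymes of glutamine and glutamate, 0 passed edgeR in si, where DESeq2 called ASNS higher and GLUL lower. At an unadjusted p under 0.05 it was 4 of them in si, where 18.9 percent of all genes passed. In OE 0 passed edgeR, DESeq2 or limma, and 1 had an unadjusted p under 0.05, where 22.9 percent of all genes did. Between the controls 1 was higher in OE_NC and 4 were lower, 50 percent of the 10, where 19.7 percent of all genes were called. GOT1, GOT2 and PPAT were among the lower enzymes. The higher gene was ASNS, already counted in the stress response. GOT1, a cytosolic aminotransferase of aspartate and glutamate, was at 65.5 CPM in OE_NC against 91.1 CPM in si_NC (log2 -0.48 ± 0.07, edgeR adjusted p = 0.000958). Of 5 tested amino acid and peptide carriers outside the 7 families, 0 passed edgeR, DESeq2 or limma in the 4 comparisons, and 0 had an unadjusted p under 0.05.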

How the data were processed

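Groups were taken from the sample titles. Per the file headers, the authors deposited a table of raw counts, with exon lengths, and a table of RPKM. Dividing each count by exon length and column total gave the deposited RPKM back. Trimming with fastp 0.23.0 and counting with featureCounts (Subread 1.5.1) are named in the submitters' processing notes. No aligner, genome build, counting strand or rule for multiply mapped reads is stated there. RNA was extracted with TRIzol and polyadenylated RNA made into stranded libraries, per the labels' protocols. Even numbers made up 66.2 to 69.3 percent of the nonzero counts, so halved counts were tried. Excluded were 2 rows without a gene name (0.0868 to 0.116 percent of counts).

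The main test was the quasi-likelihood F test of edgeR 4.0.16 (R 4.3.3) on the counts, with TMM scaling and filterByExpr (minimum count 10, minimum total 15). A single model with a mean per group covered the 12 libraries and left 8 residual degrees of freedom. Benjamini-Hochberg adjustment ran over 16300 genes, with a threshold of 0.05. An SE is the log2 change over the root of F, and CPM are scaled by TMM. Since the labels do not describe replicates as separate cultures, p-values measure the spread between libraries, which may be technical. Values are given for transporters called in any comparison, the 2 most abundant of each family, the 3 smallest p-values of each comparison, SLC3A1, SLC3A2, SLC7A5, SLC7A11 and SLC38A9. SLC1A1 was added after its values were seen. Members, lists and rules were chosen with earlier results of these data known. Some list genes are not reported here. The procedure was tested on simulated data. Alternatives were other scalings, the Wald test of DESeq2 1.42.0, other filters, only the groups compared, a replicate block, limma 3.58.1 on log2 of RPKM plus 1 or 0.1, halved counts, an offset for gene length, and each library left out.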

Additional observations from a re-analysis of the deposited data

Results flagged for a closer look

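SLC7A4 and SLC38A7 drew attention because their log2 changes in OE and in si differed by the test of the difference itself. For SLC7A4 the log2 change was -2.07 in OE and 0.45 in si, a difference of -2.52 ± 0.53 (SE, edgeR adjusted p = 0.0115), at 6 to 10 reads per OE library. For SLC38A7 it was 0.54 in OE and -0.15 in si, a difference of 0.69 ± 0.20 (edgeR adjusted p = 0.0499). Over its 22 alternative settings SLC38A7 kept an adjusted p under 0.05 in 5. Groups of 3 libraries were not searched for outlying samples.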

How the results depend on the processing

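No direction of a called transporter reversed under any alternative run. The counts below are genes called. Where no count over all genes stands beside a transporter count, that count does not show whether transporters moved more than other genes did.

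In si against si_NC, transporters called were 3 with DESeq2, 5 with no filter, 0 with the 6 libraries compared fitted alone, 0 with limma at either pseudocount, 2 with the length offset and 0 to 5 with 1 library left out, against 1. All genes called were 1125 with DESeq2, 1208 with no filter, 8 with those 6 libraries alone, 677 with the length offset and 56 to 1083 with 1 library left out, against 414. Without si replicate 3 and si_NC replicate 2 together, a setting chosen after seeing the data, 4 transporters and 1119 genes were called, SLC7A11 (log2 0.86) and SLC7A5 (log2 0.78) among them.

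In OE against OE_NC, transporters called were 1 with library totals, limma at either pseudocount or the length offset, 0 with at least 5 CPM in 3 libraries, which drops SLC7A4, and 0 to 1 with 1 library left out, against 2. All genes called were 1546 with DESeq2, 1679 with no filter, 1621 with those 6 libraries alone, 431 with the length offset and 19 to 758 with 1 library left out, against 728.

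For the difference of changes, transporters called were 5 with library totals, no filter or the length offset, 1 with the CPM filter or halved counts, and 1 to 4 with 1 library left out, against 2. All genes called were 588 to 2152 with 1 library left out, against 1371. Between the controls, transporters called were 5 with the CPM filter and 6 to 12 with 1 library left out, against 10. All genes called were 1882 to 2833 with 1 library left out, against 3215.

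Same-numbered libraries did not deviate together (r from -0.257 to 0.092 in the interference and -0.015 to 0.045 in the overexpression assay), so the numbers were not treated as pairs. With replicate number as a block, transporters called were 2 in si, 2 in OE, 1 for the difference and 12 between the controls. Why counts moved was not tested.

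With library totals the median log2 value of all genes was 0.104 in si, -0.061 in OE, -0.16 for the difference and 0.112 between the controls, against 0.025, -0.005, -0.025 and 0.02 with TMM. Transporters under 1 CPM rest on few reads, which limits the precision of their values.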
